A study of Mus musculus with 8 samples.

Results

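The genes described here are 10 cyclins and inhibitors of cyclin-dependent kinases (CDKs): Ccnd1, Ccnd2, Ccnd3, Ccne1, Ccna2, Ccnb1, Ccnb2, Cdkn1a, Cdkn1b and Cdkn2c. They were taken by symbol from a table of raw read counts with 24454 gene rows. All 10 were found, and all 10 were among the 12136 genes that passed a filter on low counts. The table came from 8 small pools of cells that were sorted by flow cytometry from the yolk sac of E11.5 mouse embryos. The yolk sac is the extraembryonic tissue in which the first blood cells and vessels form.

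Every embryo was C57BL/6 and miR144/451+/GFP, so all 3 populations shared a GFP reporter (green fluorescent protein) that sits on 1 allele of the erythroid microRNA locus miR144/451. Cells were also stained for VE-Cadherin, an adhesion protein of endothelial cells that is encoded by Cdh5. The double positive population (VE-Cadherin+GFP+, replicates 7 and 8) was 2 pools of 24 cells. The erythroid population (VE-Cadherin-GFP+, replicates 4 to 6) was 3 pools of 25 cells. The endothelial population (VE-Cadherin+GFP-, replicates 1 to 3) was also 3 pools of 25 cells. The labels do not say whether pools came from separate embryos, so p-values cover only how these pools vary, which may be technical.

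Cells pass through the division cycle as successive cyclins bind and activate CDKs. The D-type cyclins act with Cdk4 and Cdk6 in G1, cyclin E and cyclin A act with Cdk2 around DNA replication, and the B-type cyclins act with Cdk1 in mitosis. The inhibitor p21 (Cdkn1a) acts downstream of p53, p27 (Cdkn1b) restrains CDK2 complexes, and p18 (Cdkn2c) blocks Cdk4 and Cdk6. Maturing red cell precursors divide a limited number of times and then leave the cycle before they lose their nucleus or condense it.

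The libraries held 4637930 and 4818074 counts in the double positive population, 5291843 to 7618444 in the erythroid population and 3723128 to 4439165 in the endothelial population. Globin transcripts took 8.86% and 14% of counts in double positive libraries, 54.5% to 56.5% in erythroid libraries and 0.00223% to 0.00404% in endothelial libraries. Levels between libraries are therefore given as normalised read counts (CPM) after scaling by trimmed mean of M values (TMM), whose factors were 1.02 and 1.13 in double positive, 0.563 to 0.58 in erythroid and 1.65 to 1.71 in endothelial libraries. Cdh5 stood at 51.0 ± 7.19 CPM in double positive (SD, n = 2), at 0 in all 3 erythroid and at 209 ± 32.0 CPM in endothelial libraries (SD, n = 3). The double positive libraries held all 25 listed visceral endoderm markers, summing to 109100 and 107900 CPM, against 16.6 to 26.7 CPM in erythroid and 791.5 to 1335 CPM in endothelial libraries. Their 10 endothelial markers summed to 391.5 and 568.8 CPM, against 2563 to 3959 CPM in endothelial libraries. Their 10 erythroid markers summed to 78920 and 137700 CPM, against 951200 to 1013000 CPM in erythroid libraries. Their 9 mesenchyme and mesothelium markers summed to 328 and 299 CPM, against 0 to 0.326 CPM in erythroid and 3.39 to 6.52 CPM in endothelial libraries. Their 14 macrophage markers summed to 304 and 286 CPM. The 14 macrophage markers summed to 1600 to 3989 CPM in endothelial libraries and had 0 counts in all 3 erythroid libraries. These values touch every comparison given here, and the part that such cells or transcripts had in any member's level was not tested.

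Of the D-type cyclins, with edgeR and TMM, Ccnd1 passed in all 3 comparisons, Ccnd3 in both comparisons of the erythroid population and Ccnd2 in none. Erythroid libraries held mainly Ccnd3 of the D-type cyclins, endothelial libraries held Ccnd3 and Ccnd1, and double positive libraries lay between them in both shares. Ccnd1 was the 1 member with 0 counts in a whole population, the erythroid.

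Ccnd1 encodes cyclin D1, which many growth factor pathways induce (chromosome 7, 144929931 to 144939925, minus strand, GRCm38). Its raw counts were 107 and 158 in the double positive libraries, 0, 0 and 0 in the erythroid libraries and 799, 801 and 501 in the endothelial libraries. On the normalised scale this was 20.5 and 32.2 CPM in double positive pools, 0 in each erythroid pool and 106, 130.5 and 80.9 CPM in endothelial pools. The 3 populations did not overlap, with every double positive pool below every endothelial pool and above every erythroid pool. Ccnd1 was 4.01-fold lower in double positive than endothelial libraries (log2 difference −2.01, SE 0.37, 95% interval −2.88 to −1.13, adjusted p = 0.0109, edgeR quasi-likelihood test with Benjamini-Hochberg adjustment). Without replicate 7 this difference was −1.71 on the log2 scale and no longer passed (edgeR adjusted p = 0.0899). Against the erythroid population, whose floor of 3 counts over its libraries equals 0.286 CPM, Ccnd1 was at least 92.2-fold higher in double positive libraries (edgeR adjusted p = 0.0001111). Against the same floor, erythroid libraries were at least 370.3-fold lower than endothelial libraries (edgeR adjusted p = 2.4e-05). The reads carried no molecular identifiers, so such floors cover counting error only. In pools, fewer cells that express a gene and less RNA of it per cell cannot be told apart.

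Ccnd3 encodes cyclin D3, the D-type cyclin that is known in mouse to set how often erythroid precursors divide (chromosome 17, 47505051 to 47599691, plus strand). It stood at 86.2 and 105 CPM in double positive pools, at 1228, 1420 and 1481 CPM in erythroid pools and at 125, 165.5 and 95.6 CPM in endothelial pools. The erythroid pools were far above all others, and the double positive and endothelial pools overlapped. Ccnd3 was 14.4-fold lower in double positive than erythroid libraries (log2 difference −3.85, SE 0.26, edgeR adjusted p = 1.753e-05). It was 10.7-fold higher in erythroid than endothelial libraries (log2 difference 3.42, SE 0.22, edgeR adjusted p = 7.054e-06). Both passed with smaller log2 differences under library size alone, of −2.94 for double positive against erythroid and 1.88 for erythroid against endothelial libraries. Between double positive and endothelial libraries the log2 difference was −0.43, with a 95% interval of −0.94 to 0.09 (edgeR adjusted p = 0.231). That last difference passed the test when library size alone was used for scaling (log2 difference −1.07, edgeR adjusted p = 0.0116) and when globin and Rn45s counts were left out of the library size (−0.99, edgeR adjusted p = 0.0149).

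Ccnd2 encodes cyclin D2 (chromosome 6, 127125162 to 127152193, minus strand), and it was the lowest D-type cyclin per kilobase of transcript in double positive and endothelial libraries. It stood at 7.65 and 13.5 CPM in double positive pools, at 16.8, 40.9 and 30.7 CPM in erythroid pools and at 40.1, 19.1 and 22.3 CPM in endothelial pools. Both double positive pools lay below all others, while erythroid and endothelial pools overlapped. The log2 difference was −1.36 for double positive against endothelial libraries (95% interval −2.596 to −0.13) and −1.48 against erythroid libraries (−2.72 to −0.24). Neither passed the test (edgeR adjusted p = 0.114 and 0.057), and with DESeq2 both did (adjusted p = 0.0417 and 0.0363). With limma-voom neither passed (adjusted p = 0.158 and 0.147). With library size alone the first passed (−2.02, edgeR adjusted p = 0.0311) and the second shrank to −0.59 (edgeR adjusted p = 0.385). For erythroid against endothelial libraries the interval ran from −0.93 to 1.16 (edgeR adjusted p = 0.8995), and with library size alone the difference passed as lower in erythroid libraries (−1.44, edgeR adjusted p = 0.0257).

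**Figure D1:**
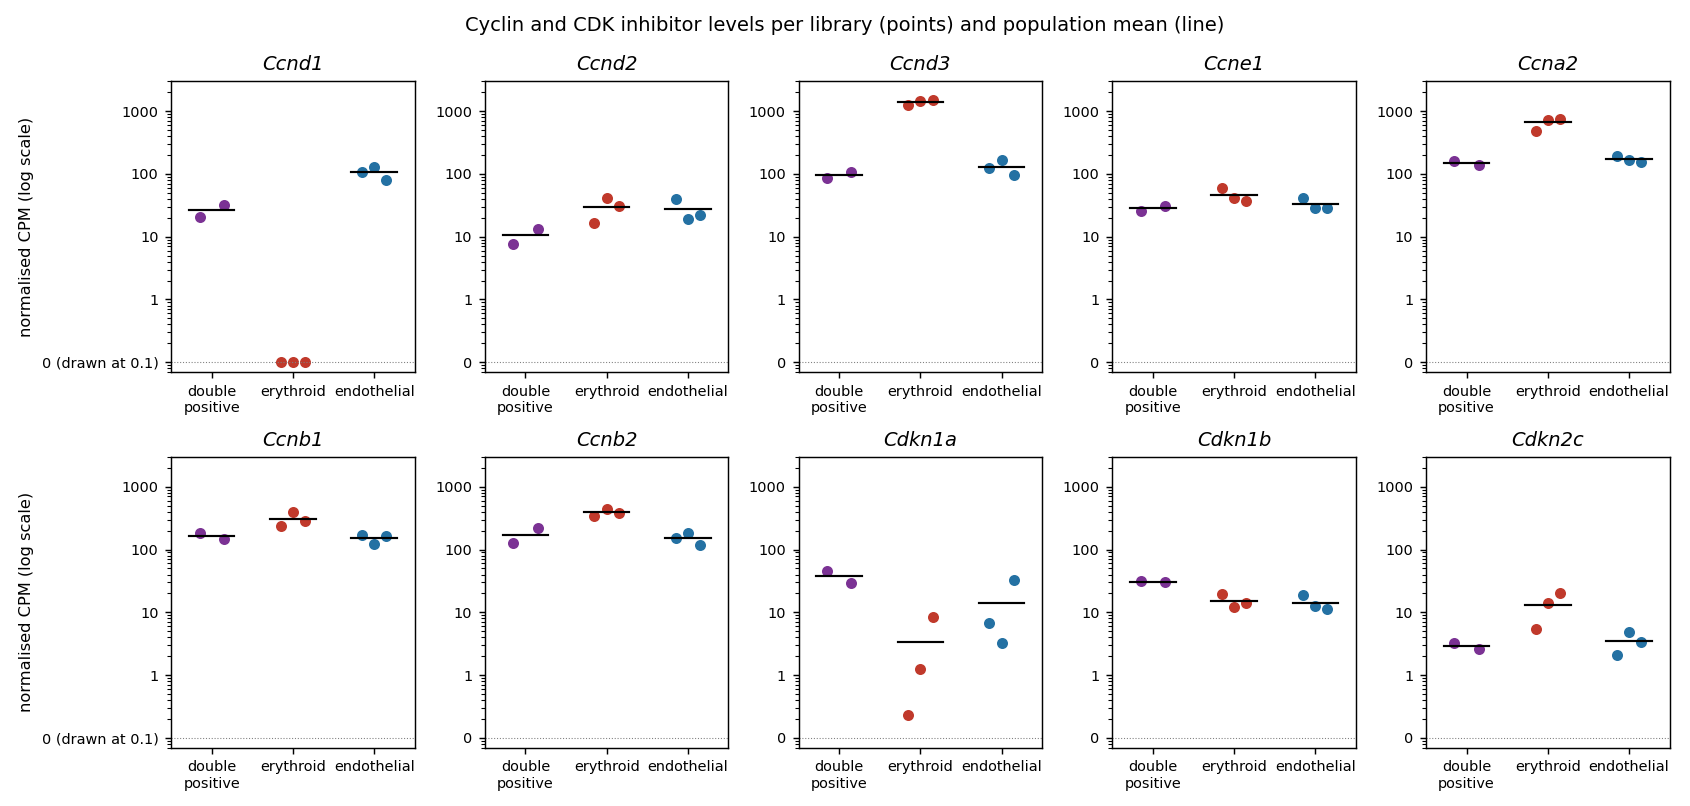
Normalised read counts (CPM, log axis with values at 0 drawn at 0.1) of the 10 genes in each library, with double positive, erythroid and endothelial pools from left to right and a bar at each population's mean. Ccnd1 is at 20.5 and 32.2 CPM in double positive pools, at 0 in the erythroid pools and between 80.9 and 130.5 CPM in endothelial pools, and Ccnd3 stands highest in the erythroid pools, at 1228 to 1481 CPM.

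The 3 D-type cyclins were then compared within each library, which removes the scaling between libraries. Each gene's counts were divided by the length of its longest principal transcript, which is 3740 bases for Ccnd1, 6330 for Ccnd2 and 2113 for Ccnd3. Ccnd3 made up 85.9% and 82.2% of D-type cyclin counts per kilobase in the double positive pools, 99.6%, 99.05% and 99.3% in the erythroid pools and 63.0%, 67.4% and 64.3% in the endothelial pools. Ccnd1 made up 11.52% and 14.3% in double positive, 0% in erythroid and 30.2%, 30.02% and 30.7% in endothelial pools. For both genes every double positive pool lay between the erythroid and the endothelial pools, with no overlap. Ccnd2 made up 3.03% ± 0.69 in double positive (SD, n = 2), 0.698% ± 0.25 in erythroid and 4.79% ± 2.10 in endothelial libraries (SD, n = 3 each), and its double positive and endothelial shares overlapped.

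With 2 or 3 pools a population, an exact two-sided permutation test cannot go below p = 0.1, and the Ccnd1 and Ccnd3 shares reached this smallest p in all 3 comparisons (0.15 after Benjamini-Hochberg adjustment over 21 tests). The Ccnd3 share was 19.2 percentage points higher in double positive than endothelial libraries and differed by −15.2 points from erythroid libraries. Which of Ccnd1 and Ccnd3 was the larger in endothelial cells depended on the length used. With the joined length of all annotated exons, 4709 bases for Ccnd1 and 8775 for Ccnd3, the endothelial shares were 56.1% for Ccnd1 and 36.4% for Ccnd3. The order of the populations was the same with either length and with raw counts.

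**Figure D2:**
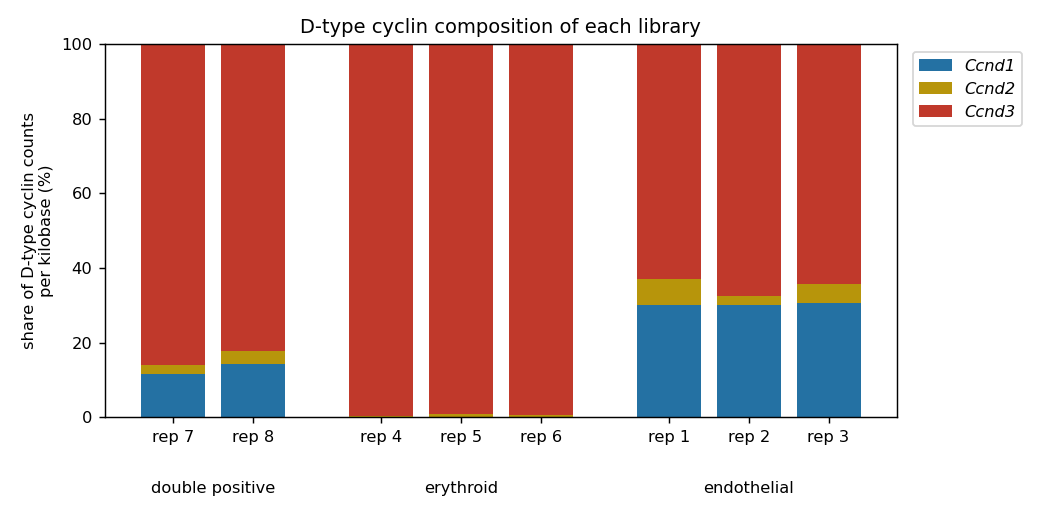
Share of each D-type cyclin in the D-type cyclin counts per kilobase of each library (percent, stacked bars from 0), with double positive, erythroid and endothelial pools from left to right. Ccnd3 takes 85.9% and 82.2% in double positive pools, 99.05% to 99.6% in erythroid pools and 63.0% to 67.4% in endothelial pools.

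Summed per kilobase, D-type cyclins came to 53.9 ± 9.14 CPM per kb in double positive, 656 ± 64.0 in erythroid and 93.4 ± 22.9 in endothelial libraries. Their kinase partners moved otherwise. Cdk4, the G1 kinase that D-type cyclins activate, stood at 367.5 ± 8.27 CPM in double positive, 222 ± 25.7 CPM in erythroid and 276 ± 18.1 CPM in endothelial libraries. It was 1.65-fold higher in double positive than erythroid libraries (edgeR adjusted p = 0.00445), a call that was lost without globin and Rn45s counts (edgeR adjusted p = 0.0598). Cdk6, the related kinase, had 0 counts in all 3 erythroid libraries and stood at 13.7 ± 0.635 CPM in double positive pools and 40.1 ± 13.03 CPM in endothelial libraries. It was at least 48.0-fold higher in double positive than erythroid libraries (edgeR adjusted p = 0.0003342) and at least 140.4-fold lower in erythroid than endothelial libraries (edgeR adjusted p = 9.817e-05). Cdk6 was 2.92-fold lower in double positive than endothelial libraries and did not pass (edgeR adjusted p = 0.0662). It passed there with DESeq2 and limma-voom (adjusted p = 0.0109 and 0.0352). With edgeR it passed under relative log expression factors, library size alone and library size without globin and Rn45s counts (adjusted p = 0.0499, 0.0163 and 0.0226). Ccnd1 and Cdk6 were thus both without a count in the erythroid pools.

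**Figure D3:**
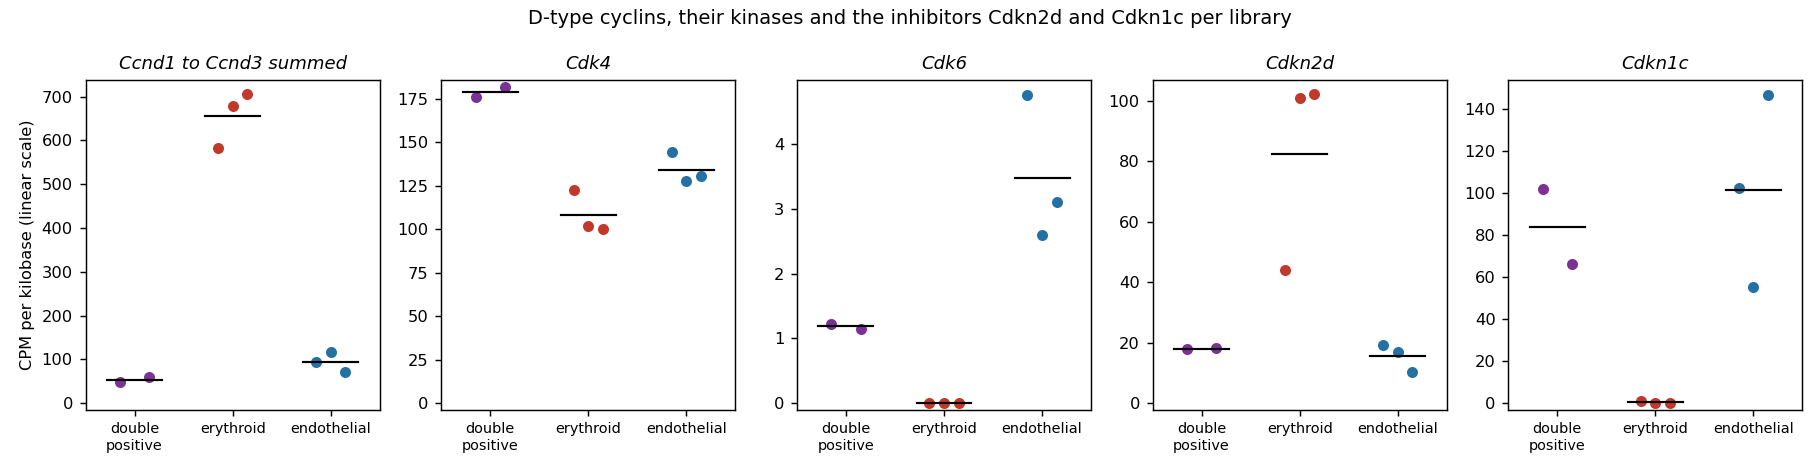
Levels per kilobase of transcript (CPM per kb, linear axes from 0) of the summed D-type cyclins, Cdk4, Cdk6, Cdkn2d and Cdkn1c in each library (points) with the population mean (line), double positive, erythroid and endothelial pools from left to right. The summed D-type cyclins reach 584 to 706 CPM per kb in the erythroid pools, against 47.5 and 60.4 in double positive and 70.4 to 116 in endothelial pools, while Cdk4 lies between 100.2 and 182 in all 8.

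Of the 4 cyclins of S phase and mitosis, Ccna2, Ccnb1 and Ccnb2 were higher in the erythroid libraries than in both other populations with TMM scaling, by 1.86-fold to 4.46-fold, though with library size alone only Ccna2 against double positive libraries passed. Ccne1 passed in no comparison with TMM scaling, and none of the 4 passed between double positive and endothelial libraries.

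Ccna2 encodes cyclin A2, the partner of Cdk2 and Cdk1 in S phase and G2 (chromosome 3, 36564865 to 36572150, minus strand). It stood at 159 and 136 CPM in double positive pools, at 483, 732 and 758 CPM in erythroid pools and at 189, 166 and 156 CPM in endothelial pools. All erythroid pools exceeded all others. Ccna2 was 4.46-fold lower in double positive than erythroid libraries (log2 difference −2.16, SE 0.23, edgeR adjusted p = 0.0001503) and 3.86-fold higher in erythroid than endothelial libraries (log2 difference 1.95, SE 0.19, edgeR adjusted p = 8.226e-05). With library size alone the erythroid against endothelial difference was 0.40 on the log2 scale and did not pass (edgeR adjusted p = 0.116).

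The mitotic cyclins Ccnb1 and Ccnb2 were also highest in the erythroid libraries, by smaller folds. Ccnb1 (chromosome 13, 100778650 to 100786570, minus strand) encodes cyclin B1, the main activator of Cdk1 at entry into mitosis. It stood at 183 and 146.5 CPM in double positive pools, at 238, 395 and 289 CPM in erythroid pools and at 172, 122 and 162 CPM in endothelial pools. It was 1.86-fold lower in double positive than erythroid libraries (log2 difference −0.90, SE 0.25, edgeR adjusted p = 0.0204) and 2.02-fold higher in erythroid than endothelial libraries (log2 difference 1.02, SE 0.22, edgeR adjusted p = 0.00586). No erythroid pool overlapped another population. The call against the double positive libraries was lost without replicate 5, 7 or 8 (edgeR adjusted p = 0.0545, 0.0502 and 0.147).

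Ccnb2 (chromosome 9, 70407692 to 70421547, minus strand) encodes cyclin B2, a second mitotic partner of Cdk1. It stood at 128 and 217 CPM in double positive pools, at 347, 449 and 378 CPM in erythroid pools and at 151, 186 and 118 CPM in endothelial pools. The double positive and endothelial pools overlapped, and the erythroid pools lay above both. Ccnb2 was 2.27-fold lower in double positive than erythroid libraries (log2 difference −1.18, SE 0.27, edgeR adjusted p = 0.00865) and 2.58-fold higher in erythroid than endothelial libraries (log2 difference 1.37, SE 0.24, edgeR adjusted p = 0.00185). Without replicate 7 the difference from double positive libraries was −0.85 on the log2 scale and did not pass (edgeR adjusted p = 0.0651). With library size alone the double positive against erythroid differences of Ccnb1 and Ccnb2 were 0.02 and −0.29 on the log2 scale and did not pass. The erythroid against endothelial differences turned to −0.53 and −0.18 on the log2 scale, while the median of all tested genes moved to −1.90 from −0.36.

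The bases upstream of these 2 mitotic cyclins are shown because B-type cyclin promoters are known for CCAAT boxes, the sites of the factor NF-Y. Both were read 5′ to 3′ on the gene's strand from RefSeq promoters of build GRCm38.p6, at chr9:70421555-70421804 for Ccnb2 and chr13:100786571-100786736 for Ccnb1, both on the minus strand. Capitals mark CCAAT and TTTGAA, the letters of a cell cycle homology element.
Ccnb2: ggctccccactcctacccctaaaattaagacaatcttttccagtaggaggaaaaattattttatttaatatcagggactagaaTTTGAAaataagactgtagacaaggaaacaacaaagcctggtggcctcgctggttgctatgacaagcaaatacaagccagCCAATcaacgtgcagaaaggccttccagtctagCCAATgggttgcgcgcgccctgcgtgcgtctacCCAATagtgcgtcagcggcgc
Ccnb1: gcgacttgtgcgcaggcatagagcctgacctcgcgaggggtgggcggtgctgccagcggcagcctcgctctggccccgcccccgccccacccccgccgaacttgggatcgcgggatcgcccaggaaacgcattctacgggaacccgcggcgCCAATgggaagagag
The 250 bases before the Ccnb2 start held 3 CCAAT, beginning 87, 54 and 21 bases before the start, and 1 TTTGAA, beginning 167 bases before it. The 250 bases before the Ccnb1 start in RefSeq held 2 CCAAT, at 99 and 67 bases, and the stretch printed ends at the GENCODE start and holds the first of them. Searched on both strands with the same 250-base window, at least 1 CCAAT was found in 33.85% of 32851 promoters, at least 2 in 10.09% and at least 3 in 2.79%, and TTTGAA in 15.99%. A promoter entry was found for 7 of the 10 members: Ccnd3, Ccne1, Ccnb1, Ccnb2, Cdkn1a, Cdkn1b and Cdkn2c. Cdkn1b held 2 CCAAT, at 161 and 35 bases, and the second of the Ccnd3 starts held 1, at 108 bases. None of the 7 held TTTCGCGC or TTTGGCGC, letters bound by E2F factors (0.655% of promoters), nor AGATAA or TGATAA, letters bound by GATA factors (16.6%). A match is a run of letters, and binding was not measured here.

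Ccne1 encodes cyclin E1, the partner of Cdk2 at the start of S phase (chromosome 7, 38097984 to 38107534, minus strand). It stood at 25.4 and 31.2 CPM in double positive pools, at 59.7, 41.3 and 37.2 CPM in erythroid pools and at 41.3, 28.8 and 28.8 CPM in endothelial pools. Both double positive pools lay below the erythroid pools, and the endothelial pools overlapped both. The log2 difference was −0.22 for double positive against endothelial (95% interval −0.97 to 0.53), −0.70 for double positive against erythroid (−1.47 to 0.06) and 0.48 for erythroid against endothelial libraries (−0.18 to 1.15). None passed the edgeR test (adjusted p = 0.714, 0.123 and 0.223). With library size without globin and Rn45s counts it passed as lower in double positive than erythroid libraries (log2 difference −1.04, edgeR adjusted p = 0.0347). It passed with library size alone as lower in erythroid than endothelial libraries (log2 difference −1.07, edgeR adjusted p = 0.013).

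Between double positive and endothelial libraries the 95% intervals of the log2 difference ran from −0.69 to 0.27 for Ccna2, from −0.44 to 0.68 for Ccnb1 and from −0.41 to 0.78 for Ccnb2. With library size alone Ccna2 passed as lower in double positive libraries (log2 difference −0.84, edgeR adjusted p = 0.0341), and the differences of Ccnb1 and Ccnb2 turned negative without passing. The sign of these differences thus depended on the scaling.

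Within a library, the summed S phase and mitotic cyclins (Ccne1, Ccna2, Ccnb1 and Ccnb2) were set against the summed D-type cyclins, both per kilobase. The log2 ratio was 2.24 and 2.12 in double positive pools, −0.18, 0.08 and −0.15 in erythroid pools and 1.43, 1.05 and 1.57 in endothelial pools. The 3 populations did not overlap, and each comparison reached the smallest p that the exact permutation test allows (p = 0.1, adjusted 0.15). The erythroid libraries thus held about as much D-type cyclin per kilobase as the other 4 cyclins summed, although each of Ccna2, Ccnb1 and Ccnb2 was highest there. With joined exon lengths the erythroid ratio was 1.66, against 3.50 in double positive and 2.26 in endothelial libraries, so the order of populations was kept and the sign in erythroid cells was not.

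**Figure D4:**
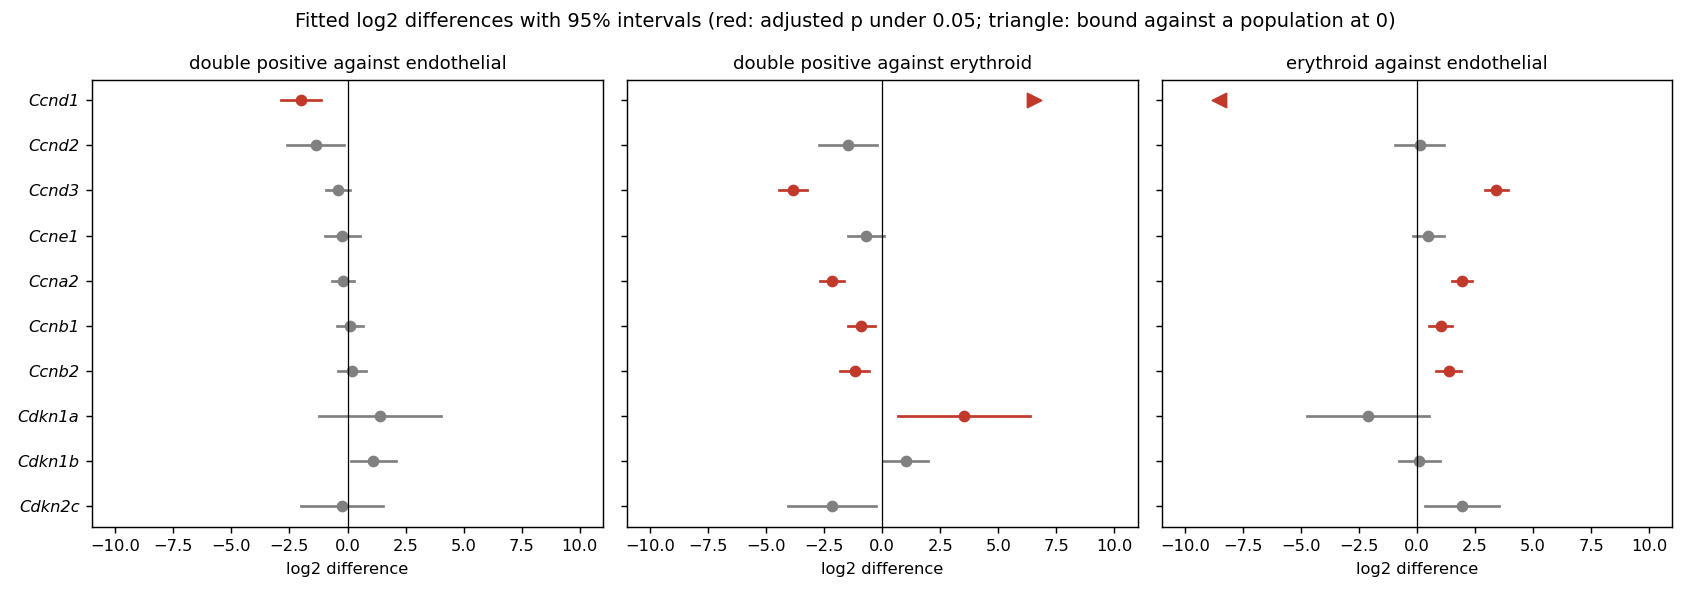
Log2 differences of the 10 genes with 95% intervals for double positive against endothelial, double positive against erythroid and erythroid against endothelial libraries, in red where edgeR's adjusted p is under 0.05 and in grey elsewhere. Triangles stand for the bound of Ccnd1 against a population at 0, which is 6.53 for double positive against erythroid and −8.53 for erythroid against endothelial libraries.

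Among the 3 CDK inhibitors, Cdkn1a was the 1 that passed a test with edgeR and TMM. Cdkn1a encodes p21 (chromosome 17, 29090976 to 29100727, plus strand). It stood at 44.7 and 29.8 CPM in double positive pools, at 0.233, 1.27 and 8.48 CPM in erythroid pools and at 6.74, 3.26 and 32.5 CPM in endothelial pools. Both double positive pools lay above all erythroid pools, and endothelial replicate 3 lay within the double positive range. Cdkn1a was 11.4-fold higher in double positive than erythroid libraries (log2 difference 3.51, SE 1.25, 95% interval 0.67 to 6.36, edgeR adjusted p = 0.0499). That call stood at the threshold, and it was lost without replicate 1, 4, 5, 7 or 8, where edgeR's adjusted p ran from 0.0627 to 0.177, and with library size without globin and Rn45s counts (edgeR adjusted p = 0.0697). Without erythroid replicate 6 the log2 difference was 5.70 and passed (edgeR adjusted p = 0.013). For double positive against endothelial libraries the interval ran from −1.23 to 4.02 (edgeR adjusted p = 0.464), and for erythroid against endothelial libraries from −4.74 to 0.50 (edgeR adjusted p = 0.1755). Leaving out single replicates moved the last difference from −4.33 on the log2 scale without erythroid replicate 6, which passed (edgeR adjusted p = 0.0295), to −0.63 without endothelial replicate 3 (edgeR adjusted p = 0.729), and it passed with library size alone (−3.64, edgeR adjusted p = 0.0276).

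Cdkn1b encodes p27 (chromosome 6, 134920401 to 134925513, plus strand). It stood at 31.4 and 30.6 CPM in double positive pools, at 19.8, 12.1 and 14.0 CPM in erythroid pools and at 19.0, 12.6 and 11.2 CPM in endothelial pools. Both double positive pools lay above the other 6. The log2 difference was 1.12 against endothelial (95% interval 0.16 to 2.07, edgeR adjusted p = 0.0954) and 1.013 against erythroid libraries (0.05 to 1.97, edgeR adjusted p = 0.0843), so neither passed over all genes. The first passed with limma-voom (adjusted p = 0.0341) and the second with library size alone (log2 difference 1.93, edgeR adjusted p = 0.00579). With library size alone the first shrank to 0.479 (edgeR adjusted p = 0.458). Without globin and Rn45s counts the first was 0.555 and the second 0.675 on the log2 scale (edgeR adjusted p = 0.396 and 0.237). The size of both thus depended on the scaling. For erythroid against endothelial libraries the interval ran from −0.77 to 0.98 (edgeR adjusted p = 0.887), and with library size alone the difference passed as lower in erythroid libraries (−1.45, edgeR adjusted p = 0.0121).

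Cdkn2c encodes p18 (chromosome 4, 109660876 to 109667189, minus strand), and it was the lowest member per kilobase in double positive and endothelial libraries. It stood at 3.25 and 2.65 CPM in double positive pools, at 5.36, 14.3 and 20.2 CPM in erythroid pools and at 2.12, 4.89 and 3.39 CPM in endothelial pools. All erythroid pools lay above all others. The log2 difference was −2.16 for double positive against erythroid (95% interval −4.04 to −0.28, edgeR adjusted p = 0.0644) and 1.93 for erythroid against endothelial libraries (0.34 to 3.53, edgeR adjusted p = 0.0544). Both passed with DESeq2 (adjusted p = 0.0306 and 0.0405) and without erythroid replicate 4 (edgeR adjusted p = 0.0306 and 0.0242). The first also passed without globin and Rn45s counts (−2.49, edgeR adjusted p = 0.0409). With library size alone they shrank to −1.25 and 0.40 on the log2 scale (edgeR adjusted p = 0.258 and 0.664). Without erythroid replicate 6 edgeR's adjusted p was 0.168 and 0.184. Raw counts of Cdkn2c ran from 13 to 62 over the libraries. For double positive against endothelial libraries the interval ran from −2.00 to 1.54.

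Within a library, Cdkn1a made up 72.4% and 64.8% of the counts per kilobase of these 3 inhibitors in double positive pools, 1.69%, 6.75% and 26.6% in erythroid pools and 39.2%, 24.9% and 80.3% in endothelial pools. Cdkn2c made up 4.43% and 4.85% in double positive pools, 32.7%, 63.9% and 53.3% in erythroid pools and 10.3%, 31.4% and 7.07% in endothelial pools. Double positive and erythroid pools did not overlap in either share (exact permutation p = 0.1, adjusted 0.15). The Cdkn1a shares of endothelial pools overlapped both other populations. Cdkn1b shares overlapped in all 3 comparisons.

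Other inhibitors of CDKs differed between the populations as well. Cdkn2d, which encodes p19INK4d and blocks Cdk4 and Cdk6 as p18 does, stood at 25.7 ± 0.325 CPM in double positive, 117.5 ± 47.3 CPM in erythroid and 22.1 ± 6.75 CPM in endothelial libraries. It was 4.57-fold lower in double positive than erythroid libraries (edgeR adjusted p = 0.00421) and 5.30-fold higher in erythroid than endothelial libraries (edgeR adjusted p = 0.00101). Cdkn1c, an imprinted gene that encodes p57, stood at 160 ± 47.9 CPM in double positive pools and 193 ± 86.7 CPM in endothelial libraries, and had counts in 1 of the 3 erythroid libraries (mean 0.699 CPM). It was 187-fold higher in double positive than erythroid libraries (edgeR adjusted p = 0.0001477) and 226-fold lower in erythroid than endothelial libraries (edgeR adjusted p = 8.231e-05). Cdkn3, a phosphatase that acts on CDKs, was 2.30-fold lower in double positive than erythroid libraries (edgeR adjusted p = 0.0466) and 3.55-fold higher in erythroid than endothelial libraries (edgeR adjusted p = 0.0042). The erythroid pools were therefore high in the inhibitor Cdkn2d and nearly without p57 transcript. Of the 5 genes on that list, 3 were tested, with medians of 0.21 for double positive against endothelial, −1.20 for double positive against erythroid and 1.83 for erythroid against endothelial libraries, and none of the 3 passed for double positive against endothelial libraries with edgeR, DESeq2 or limma-voom, and 0 had an unadjusted p under 0.05 with edgeR. Cdkn2d did not pass for erythroid against endothelial libraries with library size alone, where Cdkn3 passed in neither comparison. The Cdkn3 call for double positive against erythroid libraries was also lost with relative log expression factors and without replicate 3, 5, 6, 7 or 8.

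Counted together, 1 of the 10 members passed for double positive against endothelial libraries, 0 higher and 1 lower, beside 21.6% of all tested genes (14.6% higher and 6.92% lower). For double positive against erythroid libraries 6 passed, 2 higher and 4 lower, beside 42% of all tested genes (31.5% higher and 10.6% lower). For erythroid against endothelial libraries 5 passed, 4 higher and 1 lower, beside 41% of all tested genes (14.4% higher and 26.6% lower). The pools of the populations compared did not overlap for 3 of the members in double positive against endothelial libraries, against 57.5% of all tested genes. They did not overlap for all 10 in double positive against erythroid libraries, against 67.5%, and for 6 in erythroid against endothelial libraries, against 50.8%.

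The median log2 difference of the members was −0.22 for double positive against endothelial, −1.04 for double positive against erythroid and 0.75 for erythroid against endothelial libraries. Over all tested genes it was 0.06, 0.71 and −0.36. The comparisons share libraries, so they are not independent of each other. With edgeR and TMM no member passed as above both other populations, or as below both, in the double positive libraries. Ccnd2 passed as below both with DESeq2 and with library size without globin and Rn45s counts (edgeR adjusted p = 0.0347 against endothelial and 0.0264 against erythroid libraries). With limma-voom and with relative log expression factors it passed against neither, and with library size alone only against endothelial libraries.

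**Figure D5:**
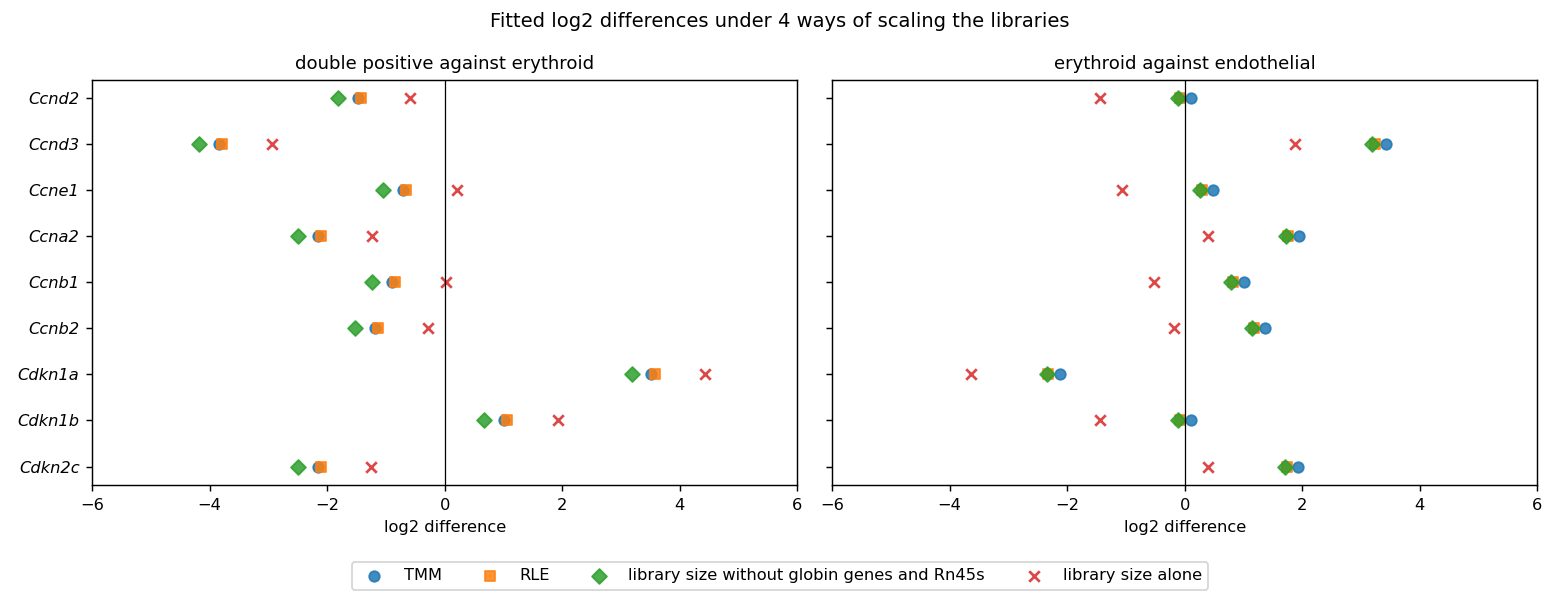
Log2 differences (x axis) of the 9 genes other than Ccnd1 under 4 ways of scaling the libraries (TMM, relative log expression, library size without globin genes and Rn45s, and library size alone), for double positive against erythroid and for erythroid against endothelial libraries, with a line at 0. Ccnb1 and Ccnb2 in erythroid against endothelial libraries lie at 1.02 and 1.37 with TMM and at −0.53 and −0.18 with library size alone, while Ccnd3 there lies above 0 under all 4.

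The machinery around the members was read from 10 lists, including the other inhibitors already named. Their counts and medians are to be read beside those of all tested genes. For double positive against endothelial libraries 14.6% of these were higher and 6.92% lower (median 0.06). For double positive against erythroid libraries 31.5% were higher and 10.6% lower (median 0.71). For erythroid against endothelial libraries 14.4% were higher and 26.6% lower (median −0.36). The 18 S phase genes of DNA replication had 14 lower and 0 higher in double positive than erythroid libraries (median log2 difference −2.17) and 14 higher and 0 lower in erythroid than endothelial libraries (median 1.51). Mcm6, a subunit of the replicative helicase, stood at 112 ± 0.196 CPM in double positive, 725 ± 164 CPM in erythroid and 213 ± 10.6 CPM in endothelial libraries. It was 1.90-fold lower in double positive than endothelial libraries (edgeR adjusted p = 0.0123), and so was Rrm1, a subunit of ribonucleotide reductase, by 1.88-fold (edgeR adjusted p = 0.0106). Tyms, which makes thymidylate, was instead 1.81-fold higher in double positive than endothelial libraries (edgeR adjusted p = 0.0132). In that comparison 1 S phase gene was higher and 4 were lower (median −0.44). The Mcm6 call there was lost without replicate 7 or 8, and those of Rrm1 and Tyms without replicate 8. The Tyms call was lost with library size alone and without globin and Rn45s counts. Under library size alone the S phase list had 0 higher and 12 lower in double positive against endothelial libraries, and 2 higher and 3 lower in erythroid against endothelial libraries.

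The 17 genes of G2 and M phase had 13 lower and 0 higher in double positive than erythroid libraries (median −1.43), and 10 higher and 0 lower in erythroid than endothelial libraries (median 0.99). Mki67, the Ki-67 proliferation antigen, stood at 112 ± 6.32 CPM in double positive, 656 ± 48.6 CPM in erythroid and 121 ± 5.11 CPM in endothelial libraries. Its log2 difference between double positive and endothelial libraries was −0.12 (SE 0.14, edgeR adjusted p = 0.628). With library size alone Mki67 passed there as lower in double positive libraries (−0.75, edgeR adjusted p = 0.00664). The same held without globin and Rn45s counts (−0.68, edgeR adjusted p = 0.00833). Top2a, the topoisomerase of chromosome condensation, was 4.17-fold lower in double positive than erythroid libraries (edgeR adjusted p = 0.0002822) and 2.595-fold higher in erythroid than endothelial libraries (edgeR adjusted p = 0.0007768). Cenpf, a kinetochore protein, and Kif11, a spindle motor, passed in the same 2 comparisons. For double positive against endothelial libraries 1 gene of the list was higher and 0 were lower (median −0.19). With relative log expression factors 0 were higher and 4 lower. With library size alone, and without globin and Rn45s counts, 0 were higher and 9 lower. Top2a did not pass there with TMM (log2 difference −0.69, edgeR adjusted p = 0.0669). It passed as lower in double positive libraries with each of these other scalings and with DESeq2 (−0.82, adjusted p = 0.00846). Scaled by library size alone, 1 was higher and 4 were lower in double positive against erythroid libraries, and 1 was higher and 6 were lower in erythroid against endothelial libraries, where Top2a, Cenpf and Kif11 no longer passed.

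Of 19 RB and E2F family genes, none was higher and 4 were lower in double positive than erythroid libraries (median −0.81), and 5 were higher and 0 lower in erythroid than endothelial libraries (median 0.87). E2f2, an E2F factor known in mouse red cell development, stood at 4.17 ± 1.31 CPM in double positive, 48.6 ± 7.61 CPM in erythroid and 1.75 ± 0.581 CPM in endothelial libraries, 27.3-fold higher in erythroid than endothelial libraries (edgeR adjusted p = 6.128e-05). Tfdp2, a dimer partner of E2F factors, was 10.7-fold higher in erythroid than endothelial (edgeR adjusted p = 3.116e-05) and 2.09-fold higher in double positive than endothelial libraries (edgeR adjusted p = 0.0357). It was the 1 gene of the list that passed for double positive against endothelial libraries, where the median was 0.23. That call was lost with relative log expression factors, library size alone, library size without globin and Rn45s counts, limma-voom, only the populations compared, and without replicate 1, 3, 5, 6, 7 or 8 (adjusted p from 0.0508 to 0.388). Rbl1, which encodes the RB relative p107, was 4.27-fold lower in double positive than erythroid libraries (edgeR adjusted p = 0.00443). Mybl2, a factor of late cycle genes, was 6.01-fold higher in erythroid than endothelial libraries (edgeR adjusted p = 0.00922). Scaled by library size alone, the list had 2 higher and 3 lower for double positive against erythroid, and 2 higher and 2 lower for erythroid against endothelial libraries, where Mybl2 no longer passed.

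Among 21 genes of CDK activation and cyclin turnover, 2 passed as higher and 5 as lower in double positive than erythroid libraries (median −0.44), 7 were higher and 1 lower in erythroid than endothelial libraries (median −0.03), and 2 passed as higher and 0 as lower in double positive than endothelial libraries (median −0.08). Cdc25b, a phosphatase that activates CDKs, stood at 10.7 ± 1.05 CPM in double positive, 185 ± 35.5 CPM in erythroid and 4.06 ± 1.62 CPM in endothelial libraries. It was 17.2-fold lower in double positive than erythroid libraries (edgeR adjusted p = 6.411e-05), 45.4-fold higher in erythroid than endothelial (edgeR adjusted p = 5.241e-06) and 2.64-fold higher in double positive than endothelial libraries (edgeR adjusted p = 0.0194). Btrc, a substrate receptor of the SCF ubiquitin ligase, was 7.47-fold higher in erythroid than endothelial libraries (edgeR adjusted p = 1.49e-05). Fzr1, an activator of the anaphase-promoting complex that directs mitotic cyclins to destruction, was 2.40-fold higher in the same comparison (edgeR adjusted p = 0.00565). Skp1a, a core subunit of the SCF ligase, was 2.95-fold higher in double positive than endothelial (edgeR adjusted p = 0.0004305) and 1.91-fold higher in double positive than erythroid libraries (edgeR adjusted p = 0.00269). Among the SCF genes named, Btrc was thus highest in erythroid and Skp1a in double positive libraries. Under library size alone the list had 1 higher and 5 lower for double positive against endothelial (1 higher and 4 lower without globin and Rn45s counts), 7 higher and 4 lower for double positive against erythroid, and 2 higher and 12 lower for erythroid against endothelial libraries. Under it Fzr1 no longer passed against endothelial libraries, and neither did Cdc25b in double positive libraries, a call that was also lost without globin and Rn45s counts, with limma-voom, with only the populations compared and without replicate 1, 3, 7 or 8.

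The 14 CDKs had 4 higher and 2 lower in double positive than erythroid libraries (median 0.74), and 1 higher and 3 lower in erythroid than endothelial libraries (median −0.23). Cdk2, the kinase of cyclins E and A, stood at 45.8 ± 3.61 CPM in double positive, 108 ± 22.9 CPM in erythroid and 52.0 ± 7.38 CPM in endothelial libraries. It was 2.35-fold lower in double positive than erythroid libraries (edgeR adjusted p = 0.00493) and 2.07-fold higher in erythroid than endothelial libraries (edgeR adjusted p = 0.00474). Both calls of Cdk2 were lost with library size alone, where the list had 6 higher and 0 lower for double positive against erythroid and 0 higher and 8 lower for erythroid against endothelial libraries. Cdk14 had 0 counts in the erythroid libraries and 2.06 ± 0.325 CPM in double positive pools and 11.2 ± 10.6 CPM in endothelial libraries. Of the CDKs, 0 passed for double positive against endothelial libraries with edgeR and TMM (3 at an unadjusted p under 0.05), 1 with DESeq2 and 2 with limma-voom, and their median log2 difference was 0.42. With edgeR and relative log expression factors 1 passed there as lower. With library size alone 3 did, and without globin and Rn45s counts 2, with 0 higher in each.

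Of 9 other cell cycle cyclins and partners 7 were tested. Ccnf, which encodes cyclin F, a receptor of the SCF ligase, was lower in double positive libraries than in both others, 27.5 ± 4.33 CPM against 86.7 ± 26.5 CPM in erythroid (3.15-fold, edgeR adjusted p = 0.00381) and 57.0 ± 9.94 CPM in endothelial libraries (2.07-fold, edgeR adjusted p = 0.0445). Cks1b, a small subunit that binds CDKs, was higher than in both others, 365 ± 36.2 CPM in double positive, against 226 ± 12.5 CPM in erythroid (1.62-fold, edgeR adjusted p = 0.0358) and 174 ± 51.7 CPM in endothelial libraries (2.10-fold, edgeR adjusted p = 0.0112). Cks2, its relative, was 1.97-fold higher in double positive (edgeR adjusted p = 0.00958) and 1.75-fold higher in erythroid (edgeR adjusted p = 0.0069), each against endothelial libraries. Ccng1, a cyclin induced by p53, stood at 44.5 ± 8.17 CPM in double positive, 27.6 ± 7.01 CPM in erythroid and 28.2 ± 6.35 CPM in endothelial libraries. With edgeR and TMM it passed in none of the comparisons. With library size alone it passed as higher in double positive than erythroid (log2 difference 1.61, edgeR adjusted p = 0.00575) and lower in erythroid than endothelial libraries (−1.58, edgeR adjusted p = 0.00324). Over this list 2 were higher and 1 lower for double positive against endothelial (median 0.66), 1 higher and 1 lower for double positive against erythroid (median 0.17), and 1 higher and 0 lower for erythroid against endothelial libraries (median 0.38). Under library size alone, and without globin and Rn45s counts, none was higher and 1 was lower in double positive against endothelial libraries, so the calls of Cks1b and Cks2 there were lost. Against erythroid libraries Cks1b was not called without globin and Rn45s counts (edgeR adjusted p = 0.231) or without replicate 4, 5, 6, 7 or 8. The Ccnf call against endothelial libraries was lost with limma-voom and without replicate 1, 2, 6, 7 or 8, and its call against erythroid libraries with library size alone. In erythroid against endothelial libraries Cks2 turned to −0.74 on the log2 scale with library size alone and passed as lower (edgeR adjusted p = 0.0104).

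The 12 cyclins of transcription and other roles had few calls with edgeR and TMM. In double positive against erythroid libraries 2 were higher and 2 lower (median −0.28). In erythroid against endothelial libraries 0 were higher and 2 lower (median 0.02), and between double positive and endothelial libraries 0 passed (median −0.46). In that last comparison 2 had an unadjusted p under 0.05 with edgeR, and 2 passed with DESeq2 and 1 with limma-voom. There edgeR called 0 higher and 4 lower with library size alone, and 0 higher and 3 lower without globin and Rn45s counts. Ccnl1, a cyclin linked to splicing, and Ccnc, a subunit of the Mediator kinase module, were lower in double positive than erythroid libraries, by 1.81-fold and 1.88-fold (edgeR adjusted p = 0.0288 and 0.0461). Ccnj and Cables1 were the 2 lower in erythroid than endothelial libraries, and both had 0 counts in the erythroid libraries. The Ccnl1 call was lost without replicate 4, 6, 7 or 8, and the Ccnc call with relative log expression factors, limma-voom, no filter and without replicate 3, 5, 6, 7 or 8. Neither passed against erythroid libraries with library size alone, where 10 of the 12 were lower in erythroid than endothelial libraries.

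The 16 p53 targets and growth arrest genes, a list that surrounds Cdkn1a, had 1 higher and 3 lower in double positive than endothelial libraries (median 0.03), 3 higher and 2 lower in double positive than erythroid libraries (median 0.97), and 2 higher and 6 lower in erythroid than endothelial libraries (median −1.11). Trp53, which encodes p53, was lower in double positive libraries than in both others, at 67.1 ± 4.08 CPM in double positive, 135 ± 13.9 CPM in erythroid (edgeR adjusted p = 0.00251) and 170 ± 17.1 CPM in endothelial libraries (edgeR adjusted p = 0.00142). Plk2, a kinase induced by p53, stood at 75.1 ± 7.06 CPM in double positive, 0 in all erythroid and 356 ± 56.3 CPM in endothelial libraries. Phlda3, another p53 target, also had 0 counts in erythroid libraries, against 8.35 ± 1.44 CPM in double positive pools and 28.8 ± 8.05 CPM in endothelial libraries. Btg1, an antiproliferative gene, was 3.73-fold lower in erythroid than endothelial libraries (edgeR adjusted p = 0.00153). Scaled by library size alone, the list had 0 higher and 5 lower for double positive against endothelial, 8 higher and 0 lower for double positive against erythroid, and 1 higher and 11 lower for erythroid against endothelial libraries, and the Trp53 call against erythroid libraries was lost (edgeR adjusted p = 0.675). Plk2 and Phlda3 were without counts in the erythroid pools, and Trp53 was not. Cdkn1a did not pass for erythroid against endothelial libraries (edgeR adjusted p = 0.1755), and 2 genes of the list were higher in erythroid libraries there.

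The 15 regulators of D-type cyclins and CDK inhibitors, a list of transcription factors, receptors and signalling genes, had 3 higher and 1 lower in double positive than endothelial libraries (median 0.39), 5 higher and 6 lower in double positive than erythroid libraries (median −0.86), and 7 higher and 5 lower in erythroid than endothelial libraries (median 1.24). Klf1, an erythroid factor known in mouse to act on cell cycle genes, stood at 28.8 ± 4.51 CPM in double positive, 763.5 ± 13.9 CPM in erythroid and 0 in all endothelial libraries. Gata1, the main erythroid GATA factor, stood at 14.0 ± 1.19 CPM in double positive, 288 ± 44.2 CPM in erythroid and 0 in all endothelial libraries. Gfi1b, an erythroid repressor, was 17.6-fold lower in double positive than erythroid libraries (edgeR adjusted p = 0.00203). Epor, the erythropoietin receptor, stood at 10.3 ± 0.186 CPM in double positive, 219 ± 25.9 CPM in erythroid and 14.3 ± 8.65 CPM in endothelial libraries, 15.4-fold higher in erythroid than endothelial libraries (edgeR adjusted p = 0.0001218). Of these 4 genes, Klf1, Gata1 and Gfi1b were also higher in double positive than endothelial libraries, and the Gfi1b call was lost with only the populations compared (edgeR adjusted p = 0.0705). All 4 were higher in erythroid than endothelial libraries, so none of the 5 lower genes is named here. For double positive against endothelial libraries the list had 3 higher and 2 lower with relative log expression factors. Library size alone, and library size without globin and Rn45s counts, gave the same counts.

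The genes whose levels ran most like each member's over the 8 libraries were found by the root mean square distance between log2 CPM profiles, each centred on its mean, among all tested genes. Nearest to Ccnd1 were Fscn1, an actin bundling gene (distance 0.22), and Flt4, a vascular growth factor receptor of endothelial cells (0.222). Nearest to Ccnd3 were Ucp2, a mitochondrial carrier (0.226), and the kinase gene Hipk2 (0.248), and nearest to Ccnd2 were Atf7ip (0.261) and Rapgef4 (0.265). Nearest to Ccna2 were Nusap1, a spindle gene (0.168), and Map2k2 (0.169), to Ccnb1 Ube2j1 (0.148) and 4833439L19Rik (0.17), to Ccnb2 the histone variant gene H2afz (0.186) and Dctpp1 (0.211), and to Ccne1 Bin3 (0.144) and Tmem230 (0.153). For the inhibitors they were Adh5 (0.175) and Slirp (0.186) with Cdkn1b, Stk17b (0.208) and Ikzf5 (0.226) with Cdkn2c, and Asb13 (0.65) and Gbe1 (0.708) with Cdkn1a. Cdkn1a had no gene as near as the other members did.

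Some of these counts could include reads of other genes. Annotated genes on the opposite strand overlap Ccnd1 (LTO1, listed in the table as Oraov1), Ccnd2, Ccnd3, Ccna2 and Cdkn1a. Bysl shares 361 bases with Ccnd3 and Exosc9 shares 863 with Ccna2, counted over whole gene spans with introns. Overlap of exons alone was not computed. Of the genes that overlap Ccnd2, 9330179D12Rik stood at 0 CPM in every library. The strand setting of the counting is not given in the sources used here. Bysl stood at 17.2 and 20.2 CPM in double positive, 88.4 to 104 CPM in erythroid and 24.6 to 38.0 CPM in endothelial libraries, well under Ccnd3 in each. Pseudogenes of Ccnd3, Ccnb1 and Ccnb2 are annotated and have no row of their own, so the sharing of reads with them is uncertain.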

How the data were processed

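Per the labels' protocols, polyadenylated RNA of each sorted pool was copied and amplified by Smart-seq2, which carries no molecular identifiers, and the 8 libraries were sequenced together. The authors deposited raw, unscaled read counts for each gene symbol. The submitters' processing notes name FastQC, HTSeq and the build mm10. Aligner, annotation and strand setting: not given in the sources used here. Libraries were grouped by their sorting gates.

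Genes were kept by filterByExpr with a minimum count of 10 (12136 of 24454 rows). edgeR 4.0.16 in R 4.3.3 scaled libraries by TMM and fitted a robust quasi-likelihood model with 1 mean per population to all 8 libraries, with a common biological coefficient of variation of 0.541, and p-values were Benjamini-Hochberg adjusted over all tested genes with a threshold of 0.05. CPM use TMM-scaled sizes. No 2 libraries were identical. Alternatives used limma 3.58.1, DESeq2 1.42.0, other scalings and filters, fits of only the populations compared, and fits without each replicate. The fit was tested on simulated data in which all populations shared a mean profile apart from a small set of changed genes. Those data held no globin shift between populations, so they cannot test the scaling used here. Shares and ratios within a library were tested by exact two-sided permutation in python 3.11.15. Coordinates and lengths are from GENCODE M21 (GRCm38). The length of the longest principal transcript, and the joined exon length as its alternative, were chosen after seeing the data.

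All members were named, with up to 4 genes of each list by smallest adjusted p, 2 nearest genes a member, and Cdh5. Members and lists were chosen with earlier results of these data known.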

Additional observations from a re-analysis of the deposited data

How the results depend on the processing

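No paired analysis was possible because the replicate numbers, 1 to 8, are all different. Of the 12 calls of members, all 12 held their direction and passed with relative log expression (RLE) factors, DESeq2, limma-voom, no filter, a minimum count of 50 and only the populations compared. With library size alone 3 reversed and 2 no longer passed, and without globin and Rn45s counts 1 no longer passed. Members called for double positive against endothelial libraries numbered 1, and 4 with library size alone and with library size without globin genes and Rn45s, 2 with DESeq2 and 2 with limma-voom. Leaving out single replicates gave 0 to 1 members and 977 to 2892 genes called in that comparison, against 2616 genes with all libraries, and 3 to 7 members and 2924 to 5193 genes for double positive against erythroid libraries, against 5103. The lowest counts came without replicate 7 or 8, each of which leaves 1 double positive library that is assumed to vary like the others. For erythroid against endothelial libraries library size alone called 7690 genes, 5.5% of them higher, against 4977 and 35.1%. The higher share for double positive against endothelial libraries was 67.9%, and 37.0% with library size alone, 41.1% without globin and Rn45s counts and 53.5% with DESeq2. Against erythroid libraries it was 74.9%, 92.4% with library size alone and 64.6% without globin and Rn45s counts. Library size alone moved the median log2 difference of all tested genes to −0.57, 1.61 and −1.90 in the 3 comparisons, from 0.06, 0.71 and −0.36. It turned Ccne1 (0.20) and Ccnb1 (0.02) in double positive against erythroid libraries, and Ccne1 (−1.07), Ccnb1 (−0.53), Ccnb2 (−0.18), Ccnd2 (−1.44) and Cdkn1b (−1.45) in erythroid against endothelial libraries, where Ccne1, Ccnd2 and Cdkn1b passed as lower. Differences near 0 changed sign in further settings. For double positive against endothelial libraries Ccnb1 was −0.016 with RLE and with DESeq2, −0.51 with library size alone and −0.44 without globin and Rn45s counts, and Ccnb2 was −0.47 and −0.38 in the last 2 settings. For erythroid against endothelial libraries Ccnd2 was −0.074 with RLE and with DESeq2, −0.12 without globin and Rn45s counts, −0.019 with limma-voom and −0.044 with only the populations compared, and Cdkn1b was −0.080 with RLE, −0.078 with DESeq2, −0.12 without globin and Rn45s counts and −0.048 with only the populations compared. Leaving out single replicates gave −0.044 to 0.26 for Ccnb1, −0.25 to 0.52 for Ccnb2 and −0.50 to 0.092 for Cdkn2c in double positive against endothelial libraries, and −0.24 to 0.50 for Ccnd2 and −0.18 to 0.36 for Cdkn1b in erythroid against endothelial libraries. Shares moved with the gene length. With raw counts, Ccnd1, Ccnd2 and Ccnd3 took 19.6%, 7.81% and 72.6% in double positive, 0%, 2.06% and 97.9% in erythroid and 40.4%, 10.7% and 48.9% in endothelial libraries. With joined exons they took 31.4%, 6.25% and 62.4% in double positive, 0%, 1.92% and 98.1% in erythroid and 56.1%, 7.45% and 36.4% in endothelial libraries. In double positive libraries Cdkn1a, Cdkn1b and Cdkn2c took 51.8%, 44.0% and 4.15% of inhibitor counts with raw counts and 56.5%, 37.5% and 5.99% with joined exons. The log2 ratio of S phase and mitotic to D-type cyclins was 1.97 in double positive and 0.98 in endothelial libraries with raw counts, and 3.50 in double positive, 1.66 in erythroid and 2.26 in endothelial libraries with joined exons. The cause of these shifts was not tested. With 2 double positive pools, intervals there are wide, above all for Cdkn1a and Cdkn2c.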
